A study of Mus musculus with 12 samples.

Results

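The genes described here are 10 mouse genes of the ATRX-DAXX-H3.3 chromatin pathway and of telomere maintenance: Atrx, Daxx, H3f3a, H3f3b, Tert, Terf1, Terf2, Pot1a, Rtel1 and Tinf2. They were taken from a fixed list of symbols and matched to Ensembl identifiers of the count table. All 10 were found among its 49671 genes, and all 10 passed the filter on low counts that left 17812 genes for testing. RNA came from formalin-fixed, paraffin-embedded mouse brain, 3 libraries in each of 4 groups. The IDH1_R132H group holds brain tumours labelled with the mutant isocitrate dehydrogenase 1 of human diffuse glioma. The IDH1WT group holds tumours labelled with the unmutated enzyme, and the PDGFA group tumours labelled with platelet-derived growth factor A. The fourth group is normal brain. All 12 samples have a labelled N::TVA background, and their labelled floxed loci include Atrx and Cdkn2a. The normal brains are marked as TVA negative. TVA is a bird virus receptor, and mouse cells that express it can be infected by RCAS vectors. The promoter behind TVA, the source of Cre, the floxed Atrx exons, the animals' ages and any agent beyond the named tumour genotype are not stated in the labels. A tumour section can also hold host cells that never recombined.

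ATRX is a chromatin remodeller that works with the histone chaperone DAXX to place the replacement histone H3.3 at telomeres and other repeats. H3.3 is made throughout the cell cycle from a pair of genes, H3f3a and H3f3b, that encode the same protein. Telomeres are extended by telomerase, whose catalytic subunit is TERT. They are covered by shelterin, a complex that includes TRF1 (Terf1), TRF2 (Terf2), TIN2 (Tinf2) and POT1, and the helicase RTEL1 unwinds structures at their ends. In human diffuse glioma, ATRX loss is common in IDH-mutant astrocytoma, often with telomere maintenance that does not use telomerase, and TERT promoter mutation is common in other types.

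Total counts ranged from 6507923 to 14277395 per library. Levels are given in CPM, counts per 1000000 counts after TMM scaling, the trimmed-mean library scaling of edgeR, and groups as mean ± SD with n = 3 unless another n is given. Libraries are numbered 1 to 3 within a group only to name them. IDH1_R132H tumour 3 carried 35.6% of its count on Gm42418, a locus rich in ribosomal RNA reads, against 0.218% to 0.855% in the other 11 libraries. The counts of normal brains 1 and 2 differed little (chi-square per gene 2.5), while normal brain 3 differed from each of them by 27.6 and 28.4. Sampling noise alone gives about 1, so they were kept as 2 samples. The labels do not state that each library is a separate animal, so the p-values measure the spread between these samples, which may be partly technical. Neuron markers (10 genes) summed to 2651 to 7034 CPM in the tumours and 5936 to 6286 in the normal brains, and no marker of neurons, astrocytes or myelinating oligodendrocytes was at 0 in any library.

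The labels write the X-linked Atrx allele as lox/lox for every sample, and the sex-linked transcripts were read against this. Xist, the RNA that coats the inactive X chromosome, had a count of 19062 in IDH1_R132H tumour 2 and 12269 in IDH1WT tumour 1, where the Y-linked genes Ddx3y, Eif2s3y, Kdm5d and Uty summed to 1 and 5. In the other 10 libraries Xist had a count of 10 to 284 and the Y-linked genes summed to 884 to 2627. Only 2 libraries, both tumours, thus had the transcripts of XX tissue. The other 7 tumours and all 3 normal brains had those of XY tissue, which has a single Atrx copy where lox/lox names a pair, so the label and the transcripts differ. Without these 2 libraries edgeR also called 0 of the 10 genes in each of the comparisons given below.

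**Figure D1:**
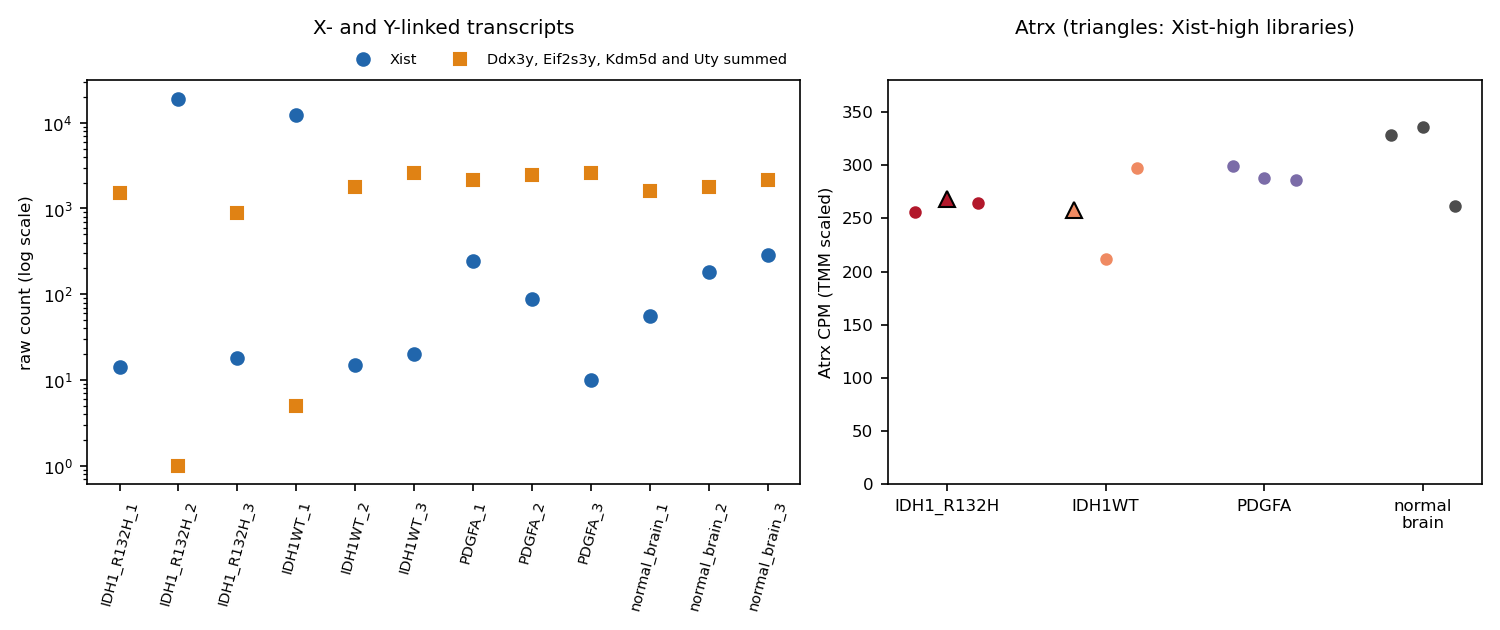
Left, raw counts (log axis) of Xist (circles) and of 4 Y-linked genes summed (squares) in each library. Right, Atrx in CPM by group, with triangles for the 2 Xist-high libraries, IDH1_R132H tumour 2 and IDH1WT tumour 1, which lie at 269 and 258 CPM among the other values.

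Atrx (ENSMUSG00000031229, chromosome X, 105797615 to 105929403, minus strand on GRCm38) was measured well above the noise of counting, with 1339 to 3896 reads per library. Its level was 256, 269 and 264 CPM in IDH1_R132H tumours 1 to 3. The IDH1WT tumours had 258, 212 and 297. It was 299, 288 and 286 in PDGFA tumours 1 to 3, against 329, 336 and 262 in normal brains 1 to 3. The groups overlapped, since 6 of the 9 tumours lay above normal brain 3. The tumour over normal log2 fold change was -0.20 (SE 0.13, 95% interval -0.48 to 0.09; edgeR adjusted p = 0.394), so whole-gene Atrx RNA did not pass the test, and a 2-fold difference lay outside the interval. These are counts over the whole gene, and reads on the floxed exons were not counted apart, so the level does not report whether the allele recombined. In bulk tissue, fewer cells of a type and less RNA per cell cannot be told apart. With limma voom and sample quality weights, Atrx passed at -0.25 (adjusted p = 0.0452). Without the 2 Xist-high libraries its log2 fold change was -0.20 (edgeR adjusted p = 0.489). Leaving out single libraries gave -0.30 (without normal brain 3) to -0.14 (without normal brain 2), with edgeR adjusted p of 0.325 to 0.737.

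Atrx varied less than most genes. The SD of its log2 CPM over the 12 libraries was 0.18, against a median of 0.29 over the 10910 other tested genes with a mean log2 CPM of at least 3, and 16.1% of those varied less. That set was not matched to Atrx by level, and counting noise adds more to this SD for genes with fewer reads. The genes with the most similar profiles, by root mean square distance between mean-centred log2 CPM over 12 libraries, were the endocytic kinase gene Aak1 (distance 0.08), the corepressor gene Sin3b (0.08), the dynein adaptor gene Bicd2 (0.09), the calcium channel gene Cacna1c (0.09) and the ubiquitin ligase gene Ubr4 (0.09). All 5 lie on autosomes.

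Daxx (ENSMUSG00000002307, chromosome 17, 33909414 to 33915590, plus strand), the H3.3 chaperone that works with ATRX, was the member with the smallest difference but one. It stood at 14.6, 12.4 and 13.6 CPM in IDH1_R132H tumours 1 to 3, 13.3, 11.2 and 15.1 in IDH1WT ones, and 12.5, 13.6 and 15.8 in PDGFA tumours 1 to 3, against 14.6, 12.4 and 14.97 in normal brains 1 to 3. All 3 normal brains lay inside the range of the tumours. The log2 fold change was -0.04 (SE 0.15, 95% interval -0.36 to 0.27; edgeR adjusted p = 0.891).

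The H3.3 genes came next. H3f3a (ENSMUSG00000060743) lies on chromosome 1, 180800832 to 180813943, and H3f3b (ENSMUSG00000016559) on chromosome 11, 116021912 to 116027962, both on the minus strand. They encode the same histone but were counted at very different levels. That gap may depend on how reads matching processed copies elsewhere were treated, which the labels do not state. The 250 bases before each RefSeq start (GRCm38.p6) were searched on both strands for CCAAT boxes (CCAAT), GC boxes (GGGCGG) and TATA boxes (TATAAA). GENCODE M21 places annotated untranslated regions, taken from any transcript on either strand, over 99 of these bases at H3f3a and 214 at H3f3b. The stretch shown is the H3f3a part outside such regions, chr1:180813633-180813783, 151 bases read 5′ to 3′ on the minus strand, with GC boxes in capitals.
H3f3a: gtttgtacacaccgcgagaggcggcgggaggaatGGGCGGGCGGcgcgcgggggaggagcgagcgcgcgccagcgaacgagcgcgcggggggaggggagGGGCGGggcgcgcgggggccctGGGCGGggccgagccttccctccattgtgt
All 4 H3f3a GC boxes, of which 2 overlap, lie in this stretch. The whole 250 bases at H3f3a had 77.2% G and C, 1 CCAAT box and no TATAAA. Those at H3f3b had 54% G and C, 4 CCAAT boxes, no GGGCGG and 1 TATA box whose first base lies 27 bases before the start. The H3f3b bases, chr11:116024505-116024754, lie inside the annotated span of the gene, so they need not be the promoter of all its transcripts. Of the 32851 mouse promoter stretches of the same length in the RefSeq table, 33.9% held CCAAT, 32.7% GGGCGG and 12.4% TATAAA, on either strand. A match to letters is a description and not a shown binding site.

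H3f3b had the largest tumour difference among the 10 genes. It stood at 126, 159.6 and 227 CPM in IDH1_R132H tumours 1 to 3. The IDH1WT tumours had 148, 268 and 149. It stood at 75.4, 117 and 140.4 in PDGFA tumours 1 to 3, against 67.4, 70.1 and 107 in normal brains 1 to 3. All IDH1_R132H and IDH1WT tumours lay above every normal brain, and PDGFA tumour 1 lay among the normal brains, so tumours and normal brains overlapped. Of all tested genes 19.4% had every IDH1_R132H tumour, and 17.4% every IDH1WT tumour, above every normal brain. The mean was 157 ± 57.9 CPM in tumours (n = 9) and 81.5 ± 22.02 in normal brain. The log2 fold change was 0.91 (SE 0.27, 95% interval 0.32 to 1.49), with an unadjusted p of 0.00527 and an edgeR adjusted p = 0.0661, which misses the threshold. DESeq2 called it higher (0.91, adjusted p = 0.0108), and so did limma voom with sample weights (1.003, adjusted p = 0.000424), edgeR with no low count filter (0.86, adjusted p = 0.00118), edgeR without PDGFA tumour 1 (0.97, adjusted p = 0.0218) and edgeR without that tumour and IDH1_R132H tumour 3 (0.89, adjusted p = 0.0212). Over all 19 alternatives the log2 value was 0.59 to 1.15 and the adjusted p 0.000424 to 0.292.

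Taken by tumour group, H3f3b was 1.07 (SE 0.32, edgeR adjusted p = 0.0594) on the log2 scale for IDH1_R132H, 1.21 (SE 0.32, adjusted p = 0.0698) for IDH1WT and 0.45 (SE 0.31, adjusted p = 0.67) for PDGFA, each over the same normal brains. Between tumour groups it was 0.76 (95% interval 0.08 to 1.44) for IDH1WT over PDGFA, with every IDH1WT tumour above every PDGFA tumour (as for 4.32% of all tested genes), and 0.62 (-0.06 to 1.30) for IDH1_R132H over PDGFA. Neither passed (edgeR adjusted p = 0.82 and 0.497). Proliferation markers (10 genes, none at 0 in any library) summed to 123 to 853 CPM in tumours and 14.2 to 19.3 in normal brains, with PDGFA tumour 1 lowest of the tumours at 123. PDGFA tumour 3 was highest at 853, yet its H3f3b level of 140.4 CPM lay below the tumour median of 147.5. IDH1WT tumour 1 summed to 182 and had H3f3b at that median. Oligodendrocyte precursor markers (10 genes, none at 0) summed to 329 to 4830 CPM in tumours and 210.3 to 225 in normal brains, again with PDGFA tumour 1 lowest at 329. Microglia and macrophage markers (10 genes, none at 0) summed to 38.5 to 362 CPM in tumours and 113 to 198 in normal brains. Endothelial markers (10 genes, none at 0) summed to 234 to 358 CPM in tumours and 189.99 to 211 in normal brains, with no overlap. Of these 10 genes 5 were called higher, against 3.71% of all tested genes. The list was not uniform, since only 7 of 10 had a positive log2 fold change and the lowest stood at -0.42. Myelin markers summed to 11352 CPM in PDGFA tumour 1, the tumour lowest in H3f3b, against 3433 to 3478 in normal brains, and astrocyte markers to 1156 CPM, against 5139 to 5324. The part of cell makeup in the H3f3b difference was not tested.

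H3f3a differed less. Its level was 12.3, 12.01 and 14.8 CPM in IDH1_R132H tumours 1 to 3, 11, 14.4 and 10.3 in IDH1WT ones, and 10.3, 9.04 and 10.1 in PDGFA tumours 1 to 3, against 9.47, 8.45 and 9.71 in normal brains 1 to 3. All IDH1_R132H tumours lay above every normal brain, as for 19.4% of all tested genes. All IDH1WT tumours did so too, as for 17.4% of all tested genes, while PDGFA tumour 2 lay inside the range of the normal brains. Tumours over normal brain gave a log2 fold change of 0.31 (SE 0.16, 95% interval -0.03 to 0.66; edgeR adjusted p = 0.257), and it was 0.49 (SE 0.19, 95% interval 0.07 to 0.91; adjusted p = 0.131) for IDH1_R132H over normal brain. Reads of H3f3a can match processed copies elsewhere, and the treatment of such reads is not stated in the labels. The annotated copies found by symbol, H3f3a-ps1, H3f3a-ps2 and H3f3c, held 4, 7 and 1 reads over all libraries. Copies under other names were not searched for. Low counts at the copies do not show how many H3f3a reads were lost, since dropped reads are missing from both. The opposite-strand genes Gm17275 and H3f3aos share 638 and 160 exon bases with H3f3a. They reached at most 0.409 and 2.49 CPM.

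The balance between the H3.3 genes was then read within each library, where it does not depend on scaling. It still depends on how reads that match processed copies were treated, which the labels do not state. H3f3b made up 91.1%, 93.0% and 93.9% of the summed H3f3a and H3f3b counts in IDH1_R132H tumours 1 to 3, 93.1%, 94.9% and 93.6% in IDH1WT ones, and 88.0%, 92.9% and 93.3% in PDGFA tumours 1 to 3, against 87.7%, 89.2% and 91.7% in normal brains 1 to 3. The share was above all normal brains in 7 of 9 tumours, the exceptions being IDH1_R132H tumour 1 and PDGFA tumour 1. It averaged 92.6% ± 2.01 in tumours (n = 9) and 89.5% ± 2.01 in normal brain (n = 3), a difference of 3.10 percentage points. The exact permutation test, two-sided, gave p = 0.0318, and p = 0.0955 adjusted over the 3 shares computed. Without PDGFA tumour 1 the difference was 3.68 points (exact permutation p adjusted over the 3 shares 0.0364). Leaving out each of the other 11 libraries gave adjusted p of 0.0727 to 0.491, the highest without normal brain 1, where the difference was 2.18 points, and the log2 ratio of the counts gave 0.109.

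**Figure D2:**
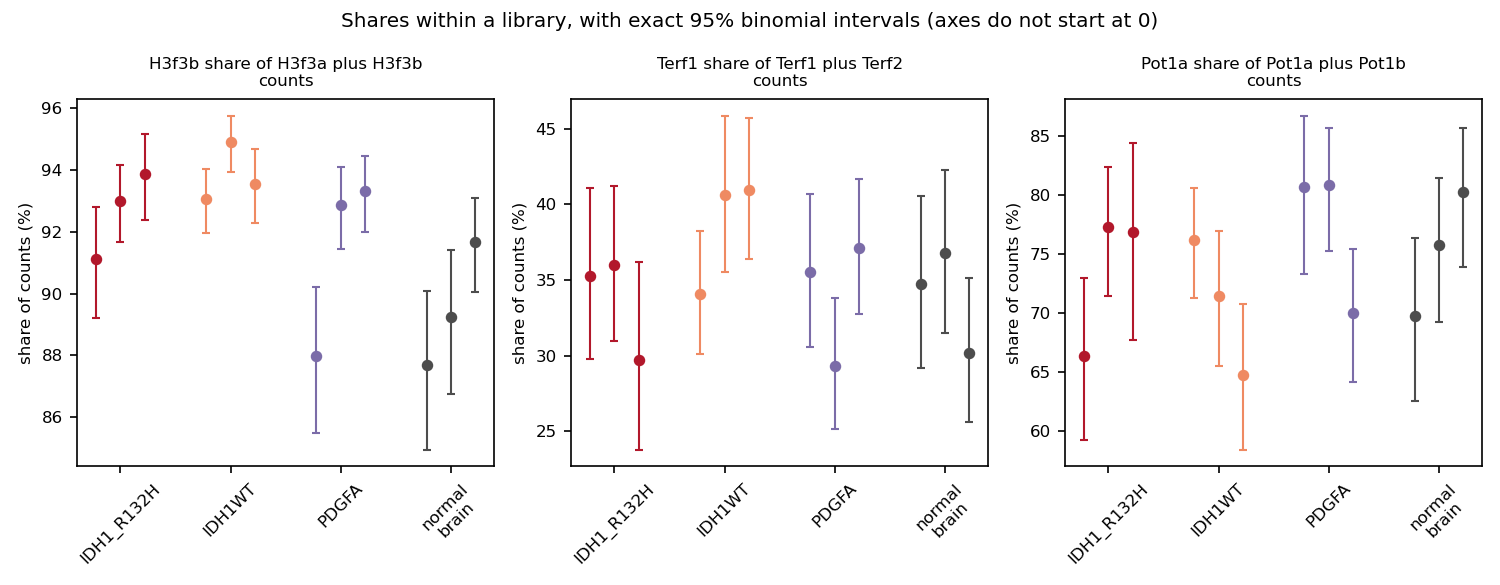
Share of counts within each library (percent, axes not from 0) for H3f3b of H3f3a plus H3f3b, Terf1 of Terf1 plus Terf2, and Pot1a of Pot1a plus Pot1b, by group, with exact 95% binomial intervals that cover counting error only. In the left panel 7 of 9 tumours lie above the highest normal brain at 91.7%, and in the other panels tumours and normal brains overlap.

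Tert (ENSMUSG00000021611, chromosome 13, 73626911 to 73649843, plus strand), the reverse transcriptase of telomerase, had the fewest reads of the 10 genes. To show what lies before the gene, the 250 bases before its RefSeq start, chr13:73626661-73626910 on the plus strand of GRCm38.p6, are shown with GC boxes in capitals.
Tert: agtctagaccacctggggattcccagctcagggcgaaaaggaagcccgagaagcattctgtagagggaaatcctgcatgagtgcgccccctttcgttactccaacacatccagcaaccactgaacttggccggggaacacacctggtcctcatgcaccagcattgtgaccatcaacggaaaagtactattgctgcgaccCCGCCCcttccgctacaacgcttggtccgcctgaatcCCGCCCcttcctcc
The stretch held 2 GC boxes, read as CCGCCC on this strand, and no CCAAT, no TATAAA and no CACGTG, the E-box letters that 6.02% of promoter stretches held.

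The Tert count was 18, 20 and 10 reads in IDH1_R132H tumours 1 to 3, 31, 10 and 19 in IDH1WT ones, and 6, 26 and 34 in PDGFA tumours 1 to 3, against 19, 24 and 26 in normal brains 1 to 3. In CPM these were 2.45, 2.04 and 1.97 in IDH1_R132H tumours, 2.05, 1.22 and 1.79 in IDH1WT tumours and 0.671, 2.16 and 3.08 in PDGFA tumours, against 2.19, 2.63 and 2.28 in normal brains. Reads of Tert were thus found in every library, normal brain included, and the PDGFA tumours held both the lowest and the highest level. The log2 fold change was -0.28 (SE 0.35, 95% interval -1.04 to 0.48; edgeR adjusted p = 0.67) for tumours over normal brain. At this depth a difference of 2-fold downwards was not excluded by the interval. All IDH1WT tumours lay below every normal brain, at -0.47 on the log2 scale (95% interval -1.41 to 0.48; edgeR adjusted p = 0.59), and 14.5% of all tested genes were separated this way. Terc, the telomerase RNA, gave 0.122 to 1.36 CPM in tumours and 0.220 to 1.05 in normal brains (log2 fold change 0.16, SE 0.51, edgeR adjusted p = 0.886).

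The shelterin genes followed. Terf1 (ENSMUSG00000025925, chromosome 1, 15805646 to 15844052, plus strand) and Terf2 (ENSMUSG00000031921, chromosome 8, 107069400 to 107096547, minus strand) encode the proteins that bind double-stranded telomeric DNA. Terf2 was the 1 member whose tumours all lay above all normal brains, although by little. It stood at 25.8, 23.0 and 30.8 CPM in IDH1_R132H tumours 1 to 3, 23.7, 26.2 and 24.9 in IDH1WT ones, and 26.2, 25.9 and 27.01 in PDGFA tumours 1 to 3, against 21.5, 22.3 and 22.8 in normal brains 1 to 3. Of all tested genes 4.67% had every tumour above every normal brain and 2.84% every tumour below, so 1 of 10 members is near that background. Tumours over normal brain gave a log2 fold change of 0.22 (SE 0.12, 95% interval -0.04 to 0.48; edgeR adjusted p = 0.283). The separation held under RLE scaling, while with plain division by the total count 7 of 9 tumours lay above.

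Terf1 varied more within groups. It stood at 14.04, 12.9 and 13.03 CPM in IDH1_R132H tumours 1 to 3, 12.3, 17.9 and 17.3 in IDH1WT ones, and 14.4, 10.8 and 16.0 in PDGFA tumours 1 to 3, against 11.4, 12.95 and 9.89 in normal brains 1 to 3. The groups overlapped, and the log2 fold change was 0.32 (SE 0.18, 95% interval -0.06 to 0.70; edgeR adjusted p = 0.293) for tumours and 0.47 (SE 0.21, adjusted p = 0.251) for IDH1WT tumours over normal brain. The Terf1 share of Terf1 plus Terf2 counts was 35.4% ± 4.07 in tumours (n = 9) and 33.9% ± 3.35 in normal brain (n = 3; exact two-sided permutation p = 0.577, adjusted 0.745). The ranges of the 2 groups overlapped, and the test did not pass. The difference of 1.502 points was 2.93 without normal brain 2 and -0.34 without normal brain 3.

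Tinf2 (ENSMUSG00000007589, chromosome 14, 55674689 to 55681820, minus strand) encodes TIN2, which bridges TRF1 and TRF2. It stood at 6.81, 6.41 and 5.53 CPM in IDH1_R132H tumours 1 to 3, 7.75, 6.71 and 9.69 in IDH1WT ones, and 9.84, 4.97 and 8.88 in PDGFA tumours 1 to 3, against 6.24, 5.82 and 6.56 in normal brains 1 to 3. The IDH1WT tumours lay above every normal brain, as for 17.4% of all tested genes, and PDGFA tumours lay on both sides. The log2 fold change was 0.24 (SE 0.22, 95% interval -0.24 to 0.72; edgeR adjusted p = 0.541). Exons of Gmpr2 on the opposite strand share 1540 bases, 31.2% of the Tinf2 exon length. Without a stated strand setting the reads of the pair cannot be told apart there, so the Tinf2 level is uncertain. Gmpr2 itself stood at 6.10 to 10.9 CPM in tumours and 5.197 to 7.09 in normal brains.

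Pot1a (ENSMUSG00000029676, chromosome 6, 25743737 to 25809246, minus strand) encodes one of the mouse POT1 proteins, which bind the single-stranded telomere end. It stood at 17.4, 19.0 and 16.4 CPM in IDH1_R132H tumours 1 to 3, 17.2, 22.3 and 14.9 in IDH1WT ones, and 13.1, 15.8 and 16.9 in PDGFA tumours 1 to 3, against 14.7, 16.8 and 13.2 in normal brains 1 to 3. The ranges overlapped, with a log2 fold change of 0.19 (SE 0.16, 95% interval -0.15 to 0.53; edgeR adjusted p = 0.504). Its paralog Pot1b, whose product limits trimming of the telomere end in mice, stood at 3.13 to 8.90 CPM in tumours and 3.24 to 6.35 in normal brains (log2 fold change 0.30, SE 0.32, edgeR adjusted p = 0.609). Pot1a made up 73.8% ± 5.93 of the Pot1a plus Pot1b counts in tumours (n = 9) and 75.3% ± 5.28 in normal brain (n = 3; exact two-sided permutation p = 0.745, adjusted 0.745). The difference of -1.45 points was -4.20 without normal brain 1 and 1.07 without normal brain 3.

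Rtel1 (ENSMUSG00000038685, chromosome 2, 181319739 to 181356616, plus strand), the helicase that unwinds telomeric loops, had the smallest tumour difference of the 10 genes. It stood at 24.7, 24.5 and 16.2 CPM in IDH1_R132H tumours 1 to 3, 18.1, 22.8 and 24.5 in IDH1WT ones, and 26.2, 19.3 and 32.4 in PDGFA tumours 1 to 3, against 23.3, 23.2 and 21.0 in normal brains 1 to 3. Tumours lay on both sides of the normal brains. Tumours over normal brain gave a log2 fold change of 0.04 (SE 0.18, 95% interval -0.35 to 0.43; edgeR adjusted p = 0.92).

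**Figure D3:**
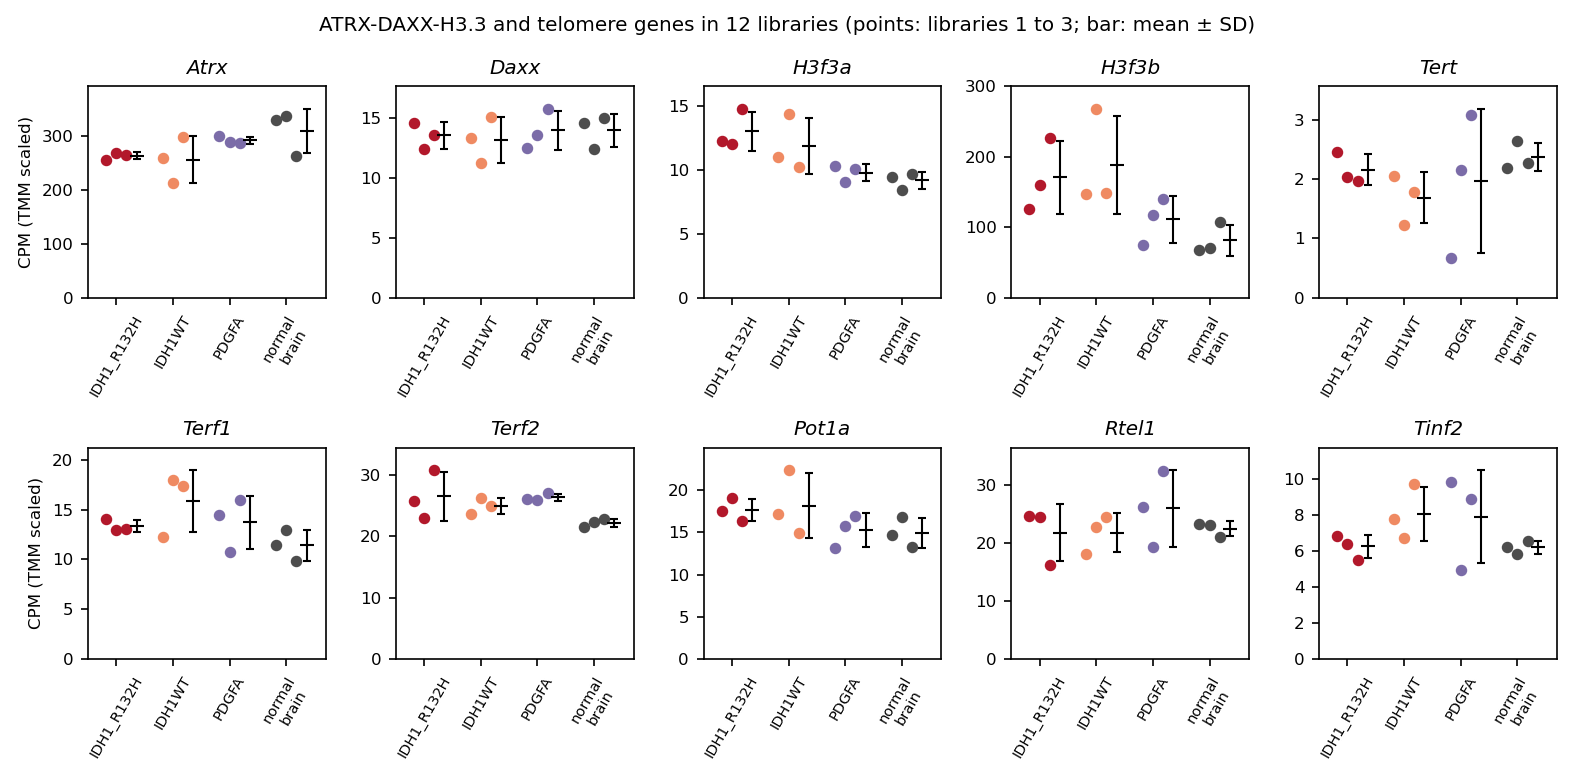
TMM-scaled CPM of the 10 genes in each library by group, with libraries 1 to 3 as points and the group mean ± SD beside them. Groups overlap in most panels, H3f3b is spread from 67.4 to 268 CPM, and every tumour lies above every normal brain in the Terf2 panel.

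Levels were ordered per length, in CPM per kilobase of annotated exon, as means over the 12 libraries. H3f3b stood highest at 46.3 ± 20.4, then Atrx at 12.9 ± 1.56, Terf2 at 5.44 ± 0.56 and Daxx at 4.34 ± 0.43. Each of these 4 lay above the next in all 12 libraries, Daxx above Rtel1 included. Rtel1 at 3.48 ± 0.64, H3f3a at 3.13 ± 0.58 and Terf1 at 2.95 ± 0.54 followed, and these neighbours did not separate beyond their spread, since Rtel1 was above H3f3a in 9 libraries and H3f3a above Terf1 in 8. Pot1a stood at 1.90 ± 0.29 and above Tinf2 (1.44 ± 0.32) in 10 libraries. Tert was lowest in all 12, at 0.36 ± 0.11. The length is the union of all annotated exons in GENCODE M21, which for Atrx is 21757 bases, and it lowers the value of genes with many annotated transcripts. The H3f3a level also depends on the unstated treatment of reads that match its processed copies.

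Within groups the members were steadier than the typical gene, with exceptions. The biological coefficient of variation fitted by edgeR, the spread between libraries beyond counting, was 14.1% for Terf2, 16.1% for Daxx, 16.5% for Atrx and 16.5% for H3f3a, against a common value of 26.5%. For Terf2 only 2.07% of tested genes had a value as low. Tert at 31.0% and H3f3b at 27.7% lay above the common value.

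Across the comparisons, edgeR called 0 of the 10 genes. For tumours against normal brain 5.22% of all tested genes were called (3.71% higher and 1.5% lower), and of the members 0 passed, with 1 (H3f3b) at an unadjusted p under 0.05, 1 by DESeq2, 2 by limma voom with sample weights and 0 by limma on the deposited rlog values. Over all tested genes these rules called 23.6%, 11.7%, 33.7% and 3.99%, so none of the member counts lay above its background. Of the member log2 fold changes 7 of 10 were positive, with a median of 0.21 against -0.01 over all tested genes. For 8 of 10 the 95% interval lay within 1 log2 unit of 0, the exceptions being H3f3b and Tert. For IDH1_R132H against normal brain 7.17% of all genes were called (4.83% higher and 2.35% lower) and 0 members, with 2 at an unadjusted p under 0.05 (H3f3a and H3f3b), 1 by DESeq2, 3 by voom and 0 on rlog values, against 25.7%, 13.7%, 41.1% and 5.71% of all genes. For IDH1WT against normal brain 1.72% of all genes (1.57% higher and 0.152% lower) and 0 members were called, with 2 at an unadjusted p under 0.05 (H3f3b and Terf1), 1 by DESeq2, 1 by voom and 0 on rlog values, against 18.9%, 7.14%, 16.9% and 0.466% of all genes. For PDGFA against normal brain 0.303% of all genes (0.258% higher and 0.0449% lower) and 0 members were called, and 0 members by the unadjusted p and by each other tool, against 10.6% of all genes by the unadjusted p, 2.72% by DESeq2, 2.45% by voom and 0% on rlog values. These comparisons share the normal brains and are not independent.

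**Figure D4:**
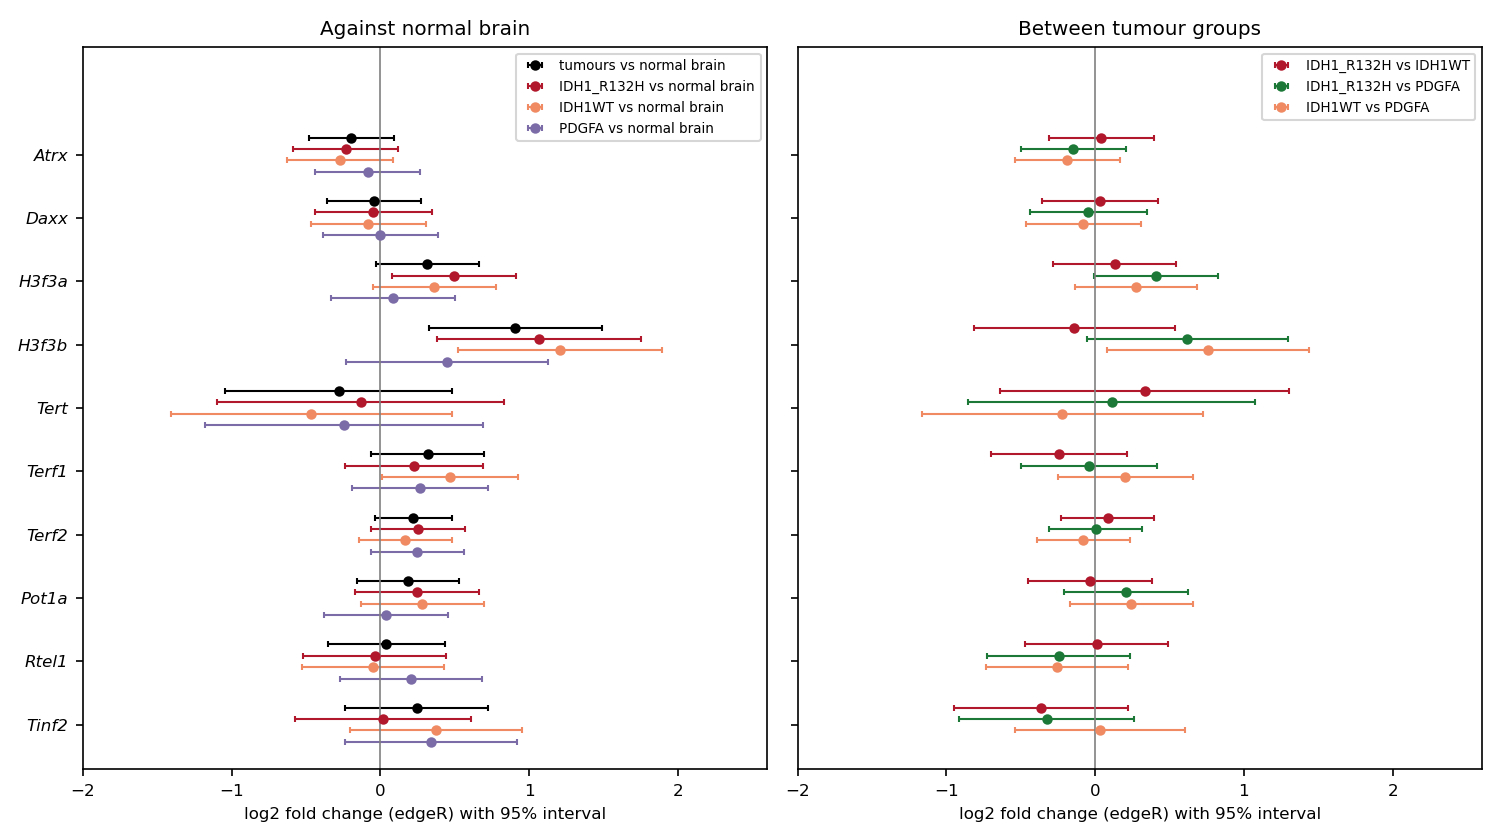
Log2 fold changes of the 10 genes with 95% intervals from the edgeR fit, left for all tumours and each tumour group over normal brain, right between tumour groups. The H3f3b interval for tumours over normal brain runs from 0.32 to 1.49, and most other intervals cross 0.

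Between tumour groups the question was whether IDH1 mutation went with a different level of these genes. EdgeR called 0 of 17812 genes for IDH1_R132H against IDH1WT, IDH1_R132H against PDGFA and IDH1WT against PDGFA (0% of all genes each), with 475, 1940 and 1038 at an unadjusted p under 0.05, 0, 146 and 12 by DESeq2, 0, 396 and 0 by voom, and 0 by limma on rlog values. Of the members edgeR called 0 in each, with 0, 0 and 1 (H3f3b) at an unadjusted p under 0.05 and 0 by DESeq2, voom and rlog values. For IDH1_R132H over IDH1WT the log2 fold change of Atrx was 0.04 (95% interval -0.31 to 0.39) and that of Daxx 0.03 (-0.36 to 0.43). Terf2 stood at 0.08 (-0.23 to 0.40), Rtel1 at 0.01 (-0.47 to 0.49) and Pot1a at -0.03 (-0.45 to 0.38). The largest member difference was Tinf2 at -0.36 (-0.95 to 0.22), and Tert at 0.33 (-0.64 to 1.31) had the only interval reaching beyond 1 log2 unit. For IDH1_R132H over PDGFA, every IDH1_R132H tumour lay below every PDGFA tumour for Atrx (-0.15, 95% interval -0.50 to 0.21; edgeR adjusted p = 0.779) and above for H3f3a (0.41, -0.01 to 0.82; adjusted p = 0.471). Of all tested genes 7.25% were separated in the first way and 5.86% in the second.

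The other genes of the pathway were described from 5 lists with 67 genes, all tested. For tumours against normal brain 3 of 67 rose and 0 fell, which is near the 3.71% of all tested genes called higher, with a median log2 fold change of 0.16. The risers were the histone chaperone gene Asf1b and the chromatin assembly factor subunits Chaf1a and Chaf1b. DESeq2 called 7, voom 18 and limma on rlog values 2, against 11.7%, 33.7% and 3.99% of all genes. All 3 risers belong to the list of H3.3 deposition and heterochromatin partners, of which 3 of 22 rose (median 0.25). These 3 are not H3.3-specific, since CAF-1, which Chaf1a and Chaf1b encode in part, loads the replication-coupled H3 onto newly copied DNA and ASF1B hands histones to it. Genes of the HIRA complex, an H3.3-specific chaperone, did not pass, with Hira at -0.08, Ubn1 at 0.13 and Cabin1 at -0.24 (edgeR adjusted p = 0.767, 0.619 and 0.255).

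Asf1b ranged from 0.559 to 5.71 CPM in the 9 tumours, with a median of 2.65, against 0.115, 0.329 and 0.438 in normal brains 1 to 3 (log2 fold change 3.31, SE 0.76, edgeR adjusted p = 0.0307). Chaf1b ranged from 0.783 to 6.25 CPM in tumours (median 4.27), against 0.577, 0.549 and 0.263 in normal brains (2.96, SE 0.67, edgeR adjusted p = 0.0295). Chaf1a ranged from 4.81 to 17.9 CPM in tumours (median 9.56), against 2.89, 3.73 and 2.71 in normal brains (1.68, SE 0.39, edgeR adjusted p = 0.0328). All 9 tumours lay above every normal brain for each, as for 4.67% of all tested genes, with PDGFA tumour 1 lowest. The 3 genes were named because edgeR called them in this comparison, so the separation is no independent evidence. The normal-brain levels rest on 1, 3 and 5 reads for Asf1b and 5, 5 and 3 for Chaf1b, so their fold sizes are imprecise. Proliferation markers, summed above, rose for 9 of 10 genes in the same comparison, against 3.71% of all tested genes. Their part in these 3 genes was not tested. Without normal brain 1, 2 or 3 none of the 3 passed (adjusted p 0.11 to 0.169), as was the case for nearly all genes of the series. Without IDH1_R132H tumour 2 none of the 3 passed either (adjusted p 0.0539 to 0.0593).

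In the other lists edgeR called no gene. For tumours against normal brain, 23.6% of all tested genes had an unadjusted p under 0.05. DESeq2 called 11.7% of all tested genes, voom 33.7% and limma on rlog values 3.99%. Of the telomere replication and recombination list 0 of 17 were called by edgeR (median 0.17), with 2 at an unadjusted p under 0.05, 2 by DESeq2, 4 by voom and 0 on rlog values. Of the shelterin and CST list 0 of 9 were called by edgeR (median 0.18), with 1 at an unadjusted p under 0.05 (Tnks2, a tankyrase gene, 0.33), 1 by DESeq2, 2 by voom and 0 on rlog values. Tnks, Tnks2 and Dclre1b in this list are accessory genes outside both complexes. The shelterin genes Terf1, Terf2, Tinf2 and Pot1a are members and not in it. The POT1 partner TPP1 (Acd, -0.06) and RAP1 (Terf2ip, 0.06) had edgeR adjusted p = 0.856 and 0.838. Of the telomerase holoenzyme list 0 of 12 were called by edgeR (median 0.11), with 0 at an unadjusted p under 0.05, 0 by DESeq2, 1 by voom and 0 on rlog values; the dyskerin gene Dkc1 stood at 0.09 (edgeR adjusted p = 0.734). Of the list named H3.3 K27 and K36 writers 0 of 7 were called by edgeR (median 0.09), with 1 at an unadjusted p under 0.05 (Ezh2, 0.59), 0 by DESeq2, 1 by voom and 0 on rlog values. That list also holds the H3K9 methyltransferase genes Ehmt1 and Ehmt2, and its enzymes are not specific to H3.3. For IDH1_R132H against normal brain edgeR called 3 of the 67, again Asf1b, Chaf1a and Chaf1b, near the 4.83% of all genes called higher there. For IDH1WT and for PDGFA against normal brain it called 0 of the 67, with 11 and 9 at an unadjusted p under 0.05, 5 and 3 by DESeq2, 9 and 1 by voom and 0 on rlog values. Over all tested genes edgeR called 1.72% and 0.303% there, with 18.9% and 10.6% at an unadjusted p under 0.05. DESeq2 called 7.14% and 2.72% of all tested genes, voom 16.9% and 2.45%, and limma on rlog values 0.466% and 0%. Between tumour groups edgeR called 0 of the 67 genes in each comparison, with 0, 1 and 2 at an unadjusted p under 0.05 for IDH1_R132H against IDH1WT, IDH1_R132H against PDGFA and IDH1WT against PDGFA, and 0 by the other tools.

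**Figure D5:**
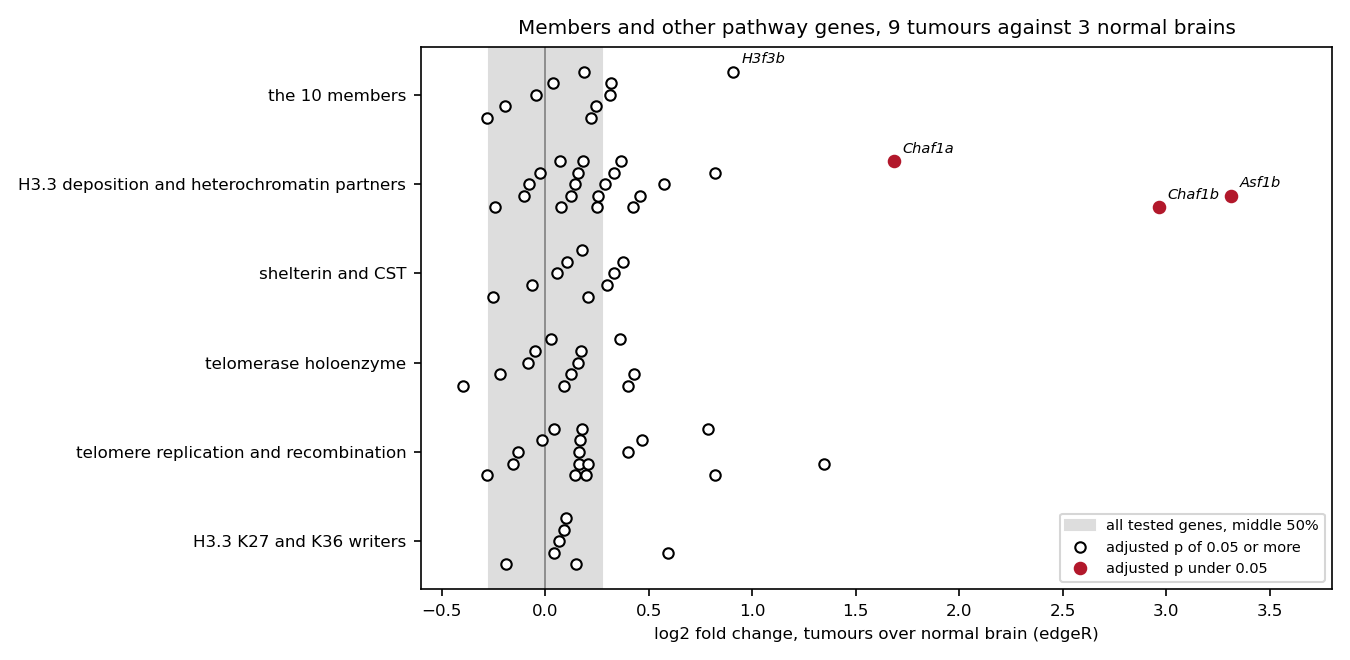
Log2 fold change of tumours over normal brain for the 10 members and the genes of 5 pathway lists, 1 point a gene, filled where the edgeR adjusted p was under 0.05. The grey band is the interquartile range of all tested genes. Asf1b, Chaf1b and Chaf1a lie furthest right, between 1.68 and 3.31.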

How the data were processed

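Raw read counts per Ensembl gene were deposited by the authors for 12 libraries. Per the submitters' processing notes, the authors used GRCm38, DESeq2 1.16.1, featureCounts 1.5.1, Subread and STAR 2.5.2b. For strand setting, gene annotation and multi-mapping treatment the entry is: not given in the sources used here. A second table deposited by the authors holds log2 values, regularized log (rlog) by its name, and served only as an alternative.

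Symbols, spans and exon lengths came from GENCODE M21 (GRCm38), promoter stretches from the RefSeq table on GRCm38.p6, where 9 of the 10 members matched. In R 4.3.3, edgeR 4.0.16 kept 17812 genes with filterByExpr (minimum count 10, minimum total 15), scaled with TMM, and fitted a robust quasi-likelihood model with 1 coefficient per group, leaving 8 residual degrees of freedom. In all, 7 contrasts were tested, with the tumour groups weighted equally against normal brain. The call threshold was 0.05 on the p adjusted by Benjamini-Hochberg over all tested genes, and all p-values named as edgeR's come from this fit. Standard errors and 95% intervals were derived from its F statistics. Binomial intervals are exact (Clopper-Pearson), and they cover counting error only, since reads carry no molecular identifiers. DESeq2 1.42.0, limma 3.58.1 (voom weights, rlog), RLE scaling, no filter and left-out libraries were alternatives. The edgeR procedure was also run on simulated counts as a check of the code, and no result here rests on that run.

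Named genes were the members, the paralog Pot1b, annotated H3.3 gene copies found by symbol, called pathway genes (at most the 6 smallest p per list) and the 5 profiles nearest to Atrx. Ehmt1, Ehmt2, Tnks and Dclre1b were named only to describe the lists. Hira, Ubn1, Cabin1, Tnks2, Ezh2, Acd, Terf2ip, Dkc1 and Terc were named after their values were seen. A listed pathway gene is not reported here. Members and lists were chosen with earlier results of these data known.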

Additional observations from a re-analysis of the deposited data

Results flagged for a closer look

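Atrx in IDH1WT tumour 2 stood at 212 CPM, the lowest of the 9 tumours, and its gap to the next tumour was 0.505 of the whole tumour range. The same measure of distance was taken for the 10 genes and the 3 shares, 13 in all, and chance alone marks about 5% of such sets. IDH1WT tumour 2 also had the highest H3f3b level, 268 CPM, and a summed neuron marker level of 2651 CPM, the lowest of the 9 tumours. Their part in the Atrx value was not tested.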

How the results depend on the processing

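Of the 10 genes, edgeR called 0 for tumours against normal brain. The count was 1 with no low count filter, 1 by DESeq2, 2 by limma voom with sample quality weights and 1 with both IDH1_R132H tumour 3 and PDGFA tumour 1 left out, and 0 to 1 when single libraries were left out (1 without PDGFA tumour 1). H3f3b was the gene called in each case, and Atrx (lower) the second gene by voom. For IDH1_R132H against normal brain the count was 1 with no filter, 1 by DESeq2 and 3 by voom (Atrx, H3f3a and H3f3b), and 0 to 1 with single libraries left out (1 without IDH1WT tumour 2, PDGFA tumour 1 or PDGFA tumour 3). For IDH1WT against normal brain it was 1 with no filter, 1 by DESeq2, 1 by voom and 1 without IDH1_R132H tumour 3 and PDGFA tumour 1, and 0 to 1 with single libraries left out (1 without PDGFA tumour 1 or 3). In the 3 comparisons between tumour groups and for PDGFA against normal brain it was 0 under every alternative run. The count of pathway genes was 3, against 7 by DESeq2, 18 by voom, 10 without IDH1_R132H tumour 3 and PDGFA tumour 1, and 0 to 6 with single libraries left out (0 without any 1 normal brain or IDH1_R132H tumour 2, 5 without IDH1WT tumour 1 and 6 without PDGFA tumour 1). The cause was not tested. With single libraries left out the H3f3b share differed by 2.18 to 4.17 percentage points (adjusted p 0.0364 to 0.491), the Terf1 share by -0.34 to 2.93 and the Pot1a share by -4.20 to 1.07. The log2 fold change for tumours against normal brain changed sign in 1 of 19 alternatives for Daxx (-0.13 to 0.01) and 3 of 19 for Rtel1 (-0.03 to 0.10), and in 0 of 19 for the other 8 genes. The count of all genes called for that comparison was 929, against 2204 with no filter, 2084 by DESeq2, 6005 by voom, 2928 without those 2 tumours, 2536 without PDGFA tumour 1, 367 without IDH1_R132H tumour 2, 598 without IDH1WT tumour 3, 0, 1 and 3 without normal brain 1, 2 and 3, and 617 without the 2 Xist-high libraries. Leaving out the Xist-high libraries was chosen after seeing the data, as was the Terf2 check under other scalings. No paired analysis was possible because the labels give no replicate numbers that groups share. Depth limits Tert, with 6 to 34 reads per library.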
